A study of Mus musculus and synthetic construct with 9 samples.

Results

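The weakly active SNP elements are 336 of the 6628 SNPs tested in a massively parallel reporter assay (MPRA), and they hold 672 of its 13628 sequences. They were selected on standard culture, where the reference and the alternate sequence of each SNP both gave slightly more reporter RNA than the typical sequence. The value that chose them is the log2 of the RNA counts over the plasmid counts, each summed over 5 libraries with a pseudocount of 1, minus the median over all sequences with at least 500 plasmid counts. Both alleles had to lie above 0.2 and at or below 0.5 on this scale, which is 1.15-fold to 1.41-fold above the median sequence, and both alleles of 6248 SNPs had the plasmid counts that the rule asks for. The cells were MIN6, a line from a mouse insulinoma with many traits of pancreatic β cells. Each tested sequence is 200 bp of human genome, placed on a plasmid before a minimal promoter that drives GFP, with 20 bp barcodes in the 3′ UTR of the GFP mRNA. Cells in standard culture kept their medium after transfection. In the DMSO group, the medium was replaced 6 h after transfection with medium that held 0.025% DMSO, and in the Tg group with medium that held 250 nM Tg (thapsigargin) in 0.025% DMSO. All cells were collected 30 h after transfection, and each condition has 5 RNA libraries from transfections on separate days. Standard culture was transfected with a first batch of the plasmid library, DMSO and Tg with a second batch, and the barcodes of DMSO and Tg went through more PCR cycles, so ratios of standard culture stand beside those of DMSO and Tg with no test between them. The limits of the model are that human sequences were read on plasmids, outside chromatin, in mouse cells of 1 line.

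A cis-regulatory element is DNA to which transcription factors bind and so raise transcription from a promoter. In an MPRA, barcodes that are more frequent in RNA than in the plasmid pool mark sequences that activate the minimal promoter, and a difference between the alleles of a SNP is an allelic effect. Thapsigargin blocks the pump that fills the endoplasmic reticulum (ER) with calcium, which causes ER stress and starts the unfolded protein response. Factors of that response, such as ATF4, ATF6 and XBP1, switch on genes for protein folding and amino acid supply, while much other protein synthesis is held back. β cells make large amounts of insulin and are known to be sensitive to ER stress.

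The bases around the SNP were held here for 8 of the weakly active elements outside chromosome 8, and they are shown because they are the sequences in which a single base separates the alleles whose values are given below. They are hg19 positions on the plus strand, from the study's tables of motif matches, with the SNP base in capitals. The full tested sequences were not used here.
rs12189774 at chr6:43816114-43816137, VEGFA locus, reference: gtttccctaggaGgcctctcttac
rs12189774, alternate: gtttccctaggaAgcctctcttac
rs12423334 at chr12:121949268-121949289, KDM2B locus, reference: tagtagagaCgaggtgtcacca
rs12423334, alternate: tagtagagaTgaggtgtcacca
rs111817684 at chr1:233305272-233305294, PCNX2 locus, reference: tcccagctacaCgggaggctgag
rs111817684, alternate: tcccagctacaTgggaggctgag
rs12496506 at chr3:170692997-170693022, between EIF5A2 and SLC2A2, reference: ctgggctccgtgggCgtgggtcccgt
rs12496506, alternate: ctgggctccgtgggTgtgggtcccgt
rs10790008 at chr11:114283619-114283639, reference: agcgtgagcCaccacaactgg
rs10790008, alternate: agcgtgagcAaccacaactgg
rs1270853 at chr1:111991831-111991859, reference: ccggccggagactcCgctccggcagcaaa
rs1270853, alternate: ccggccggagactcAgctccggcagcaaa
rs1332018 at chr1:110282958-110282986, reference: ggggctttatacccGacataagggggcgg
rs1332018, alternate: ggggctttatacccTacataagggggcgg
rs9429530 at chr1:114896061-114896089, reference: gggagggccactggAactgggaggggacg
rs9429530, alternate: gggagggccactggGactgggaggggacg
In 5 of these 8 windows the alternate letters hold fewer CG steps than the reference letters, and in the other 3 the number is equal. Loci and neighbouring genes are those of the study's tables, and for the last 4 of these SNPs no gene was given in the tables used here.

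Total counts were 19851799 to 30938393 in the standard culture libraries that the rule used, 28896082 to 33325429 in DMSO, 29968043 to 44899256 in Tg, 25681275 to 31761939 in the first plasmid batch and 23009482 to 36129587 in the second. Each weakly active sequence had 627 to 38704 counts in the second plasmid batch, with a median of 13150.5 beside 10414.5 over all sequences. Without molecular identifiers, several reads can stem from the same molecule. A ratio below is the log2 of RNA over mean plasmid counts in a library, with a pseudocount of 1, minus the median of that library over sequences with at least 500 plasmid counts, and n = 5 libraries unless stated.

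Standard culture placed the 672 sequences at ratios of 0.20 to 0.50 by the rule itself, with medians of 0.30 for reference and 0.32 for alternate alleles. These values chose the elements and are a description. Just inside the lower bound lay rs1888214, at 0.4041 for the reference and 0.2002 for the alternate allele, and ss1388053595, at 0.2273 and 0.2003. Just outside it lay rs7527662, at 0.2654 and 0.1999, and rs10830804, at 0.2124 and 0.1989. At the upper bound, the SNP named by its position as 6:31148606:T, at 0.4540 and 0.4993, and 19:7616347:A, at 0.4706 and 0.4984, were inside, while rs8042747, at 0.5041 and 0.5039, and rs59144355, at 0.5071 and 0.4121, were outside. The allele nearest to a bound lay within 0.01 of it for each of these 8 SNPs, and the SD of a sequence between standard culture libraries had a median of 0.07. The table holds 9 RNA columns of standard culture under 6 library numbers, some of them marked with a star that the sources used here do not explain. The rule used 5 of them, 2 with a star, and left out 4, of which only number 1 has no column of its number in the rule. The rule also left out 1 plasmid library. In the RNA library of number 1 over that plasmid library, the median ratio was 0.23 over the weakly active sequences and 0.00 over all 12867 sequences with plasmid counts of the same depth. There, 355 of the 672 sequences again lay above 0.2 and up to 0.5, 292 lay at or below 0.2 and 25 lay above 0.5, and 648 lay above 0. By the count test described next, 651 sequences had more RNA than plasmid in standard culture, beside 18.6% of all 13430 sequences tested, which the rule fixed in large part.

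In DMSO most of the weakly active sequences again gave more RNA than plasmid. Activity was tested with the quasi-likelihood test of edgeR on all 13413 sequences whose plasmid counts averaged 10 or more, at an FDR of 1%. In DMSO 612 of the 672 sequences (91.1%) were active, beside 19.8% of all sequences tested, and in Tg 524 (78.0%) were active, beside 12.8%. None had less RNA than plasmid past the test in any condition, and both alleles were active for 292 SNPs in DMSO and for 232 in Tg. No allele was active for 16 SNPs in DMSO and for 44 in Tg. The plasmid libraries of both conditions are the same, so an error in the plasmid counts of a sequence enters both. The zero of this scale is the typical sequence, not absolute transcription: with libraries scaled by total counts alone, the median log2 difference between RNA and plasmid over all sequences moved from -0.01 to -0.74 in DMSO, from -0.01 to -0.81 in Tg and from -0.01 to -0.82 in standard culture. On that scale 88 of the 672 sequences were above and 384 below plasmid in DMSO, 16 above and 585 below in Tg, and 0 above and 672 below in standard culture. All directions below are therefore relative to the typical sequence.

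The median ratio of the weakly active sequences was 0.49 in DMSO and 0.36 in Tg, beside -0.02 over all sequences in each. Across sequences the mean ratio ran from -0.31 to 1.43 in DMSO, with 325 sequences above 0.5, 275 above 0.2 and up to 0.5, and 72 at or below 0.2. In Tg it ran from -0.34 to 2.32, with 135, 450 and 87 sequences in these bands. The median SD over libraries was 0.10 in DMSO and 0.12 in Tg, while the 25th and 75th percentiles over the 672 sequences were 0.32 and 0.74 in DMSO. The rule cut standard culture to its band, so a wider range in other libraries was fixed in advance. Over all sequences these percentiles were -0.07 and 0.08 in standard culture and -0.11 and 0.13 in DMSO. Over the 672 sequences, the ratio that chose a sequence and its mean ratio in DMSO had a Pearson correlation of 0.30, and with Tg of 0.40, given as a description over sequences that share libraries and depth and whose range the rule narrowed. The alleles of a SNP, which share nearly all their bases, were far more alike: over the 336 SNPs the correlation between reference and alternate was 0.86 in DMSO and 0.82 in Tg.

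The most active elements in DMSO were rs4781301, rs13113561, rs868521, rs10165235 and rs7824269. For the reference allele of rs4781301 the DMSO libraries gave ratios of 1.17, 1.64, 1.48, 1.48 and 1.36, and the Tg libraries 1.21, 1.28, 1.03, 1.46 and 1.46. All 10 values lie far above the band from 0.2 to 0.5, and the ranges of DMSO and Tg overlap. The alternate allele of rs13113561, which lies between RBM46 and NPY2R, a receptor of neuropeptide Y, gave 1.24, 1.77, 1.26, 1.36 and 1.50 in DMSO. In standard culture the same sequence was at 0.41 by the rule. In Tg the most active elements were rs175874, rs112719228, rs4781301, rs1462149 and rs2084419, at mean ratios of 2.32, 1.64, 1.29, 1.26 and 1.26 for their more active allele.

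Between DMSO and Tg, more of the weakly active sequences fell than rose, and most did not pass the test in either direction. Tg was set against DMSO in edgeR directly on RNA counts at an FDR of 1%. Of the 672 sequences, 202 (30.1%) fell in Tg, beside 4.17% of all 13413 sequences tested, and 25 (3.72%) rose, beside 2.04%. All 202 that fell were active in DMSO, as were 612 of the 672 but only 19.8% of all sequences tested. The share that fell among all active sequences was not computed. These shares therefore do not show that falls are particular to weak activity. The remaining 445 did not pass the test. The median log2 fold change was -0.13 over the 672 sequences and 0.01 over all, and 435 of the 672 values were below 0. Both alleles fell for 80 SNPs and 1 allele for 42. Both alleles rose for 5 SNPs, 1 allele for 15, and no SNP had an allele that rose beside 1 that fell. The log2 fold changes of the alleles of a SNP had a correlation of 0.87 over the 336 SNPs. All 5 Tg libraries lay below all 5 DMSO libraries for 213 sequences, beside 5.54% of all sequences tested, and above them for 29, beside 2.43%.

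Some of these counts moved with the libraries. Among single DMSO libraries, number 2 had the highest median over the weakly active sequences, at 0.57 against 0.46 to 0.50 in the others, and without it 160 sequences fell. Leaving out each library in turn gave 160 to 208 falls and 15 to 26 rises. The rises dropped to 16 without DMSO library 1, to 15 without DMSO library 5 and to 16 without Tg library 2, and DESeq2 called 39. With libraries scaled by total counts, 273 sequences fell and 6 rose, and the median of all sequences moved from 0.01 to -0.08.

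The sequences that fell had mean ratios of 0.34 to 1.43 in DMSO (median 0.82) and of -0.08 to 0.81 in Tg (median 0.37). Their log2 fold changes ran from -0.94 to -0.19, with a median of -0.41. The largest falls were at rs10742747, rs12419620, rs56108623, rs175969 and rs13154281. For the reference allele of rs10742747, on chromosome 11 at position 45284774, DMSO gave 0.99, 1.34, 0.83, 0.97 and 1.20 and Tg gave 0.22, -0.03, 0.12, -0.05 and 0.29. The groups do not overlap, and in Tg the values straddle the typical sequence. RNA was 1.92-fold lower in Tg (log2 fold change -0.94, SE 0.0827, edgeR adjusted p = 2.19e-08), and activity in Tg did not pass the test (edgeR adjusted p = 0.157). The reference allele of rs12419620, on chromosome 11 at position 2232553, gave 1.11, 1.36, 0.99, 1.08 and 1.28 in DMSO and 0.22, 0.32, 0.17, 0.20 and 0.27 in Tg. Here too every Tg value is below every DMSO value, by 1.89-fold in the fit (edgeR adjusted p = 1.07e-18). The alternate allele fell from 0.94 ± 0.17 to 0.33 ± 0.18 (SD, n = 5 each), a log2 fold change of -0.60. At rs175969, on chromosome 1 at position 29198558, the reference allele fell by 0.65 and the alternate allele by 0.75 on the log2 scale. At rs13154281, upstream of C5orf63, the falls were 0.69 and 0.75, on only 1920 and 2328 plasmid counts, with SDs of up to 0.44 between libraries.

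The most active elements of DMSO divided in Tg. For the alternate allele of rs13113561, Tg gave 0.70, 0.72, 0.55, 0.77 and 0.75, all below the DMSO values above (1.65-fold lower, edgeR adjusted p = 8.35e-09). Both alleles of rs7824269, at the LINC00824 locus, a long non-coding RNA gene, also fell, from 1.10 ± 0.15 to 0.56 ± 0.07 and from 1.29 ± 0.19 to 0.58 ± 0.15 (SD, n = 5). At rs10165235 the reference allele fell by 0.46 on the log2 scale, and the alternate allele, at -0.26, did not pass the test (edgeR adjusted p = 0.149). For rs4781301 the log2 fold changes were -0.12 and -0.05, with edgeR adjusted p of 0.493 and 0.771. The reference allele of rs868521 had a log2 fold change of -0.31 (edgeR adjusted p = 0.137), which passed without Tg library 1 (edgeR adjusted p = 0.00101).

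The 25 sequences that rose had a median ratio of 0.39 in DMSO and 0.67 in Tg, and log2 fold changes of 0.20 to 1.68. At rs175874 the DMSO libraries gave 0.84, 1.09, 0.72, 0.61 and 0.71 for the reference allele and 0.84, 0.87, 0.61, 0.39 and 0.57 for the alternate allele. Tg gave 2.59, 2.24, 1.91, 2.35 and 2.44 for the reference and 2.64, 2.29, 2.02, 2.29 and 2.36 for the alternate allele. No Tg value comes near a DMSO value, and the alleles gave nearly the same level in Tg. RNA rose 2.91-fold for the reference (edgeR adjusted p = 2.16e-05) and 3.21-fold for the alternate allele (edgeR adjusted p = 5.11e-06). In standard culture these sequences had ratios of 0.34 and 0.24 by the rule.

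4 further elements complete the largest rises. For the alternate allele of rs73409011, DMSO gave 0.39, 0.28, 0.31, 0.35 and 0.45 and Tg gave 1.34, 0.98, 1.03, 1.22 and 1.11. This sequence stayed within the standard culture band in DMSO and left it in every Tg library (1.74-fold, edgeR adjusted p = 8.86e-18), and the reference allele rose too, by 0.67 on the log2 scale. The reference allele of rs1462149 gave 0.78, 0.98, 0.70, 0.62 and 0.83 in DMSO and 1.38, 1.11, 1.13, 1.33 and 1.37 in Tg (1.41-fold, edgeR adjusted p = 1.63e-09). The groups do not overlap, and the alternate allele rose by 0.48. For the reference allele of rs112719228, DMSO gave 1.06, 1.43, 0.95, 0.93 and 1.23 and Tg gave 1.88, 1.60, 1.40, 1.61 and 1.70 (1.44-fold, edgeR adjusted p = 0.0031). The lowest Tg value lies just under the highest DMSO value, and the call was lost without Tg library 4 (edgeR adjusted p = 0.0151) and without Tg library 5 (0.0124). The reference allele of rs863840, at the locus of MAP3K1, a kinase of stress signalling, gave 0.24, 0.34, 0.31, 0.44 and 0.38 in DMSO and 0.53, 0.46, 0.84, 0.94 and 0.88 in Tg (1.34-fold, edgeR adjusted p = 0.00451). Its call was lost without DMSO library 1, 2, 3 or 5 and without Tg library 3, 4 or 5, with edgeR adjusted p of 0.0107 to 0.0223. The call was also lost in the first sequencing run alone (edgeR adjusted p = 0.0145). The alternate allele of rs863840 did not pass the test between Tg and DMSO. The rises of rs175874, rs73409011 and rs1462149 passed in every alternative run, while those of rs112719228 and rs863840 were also lost with total-count scaling.

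Type 2 diabetes (T2D) loci were marked for 67 of the weakly active SNPs in the rows of the study's T2D table held here. That table is shortened, so other SNPs among the 336 can be T2D SNPs too, and no test was made on the split. Of the 134 sequences of the 67 SNPs, 9 rose and 14 fell in Tg, with a median log2 fold change of 0.11. The median ratio of these 134 sequences was 0.30 in DMSO and 0.37 in Tg. Of the other 538 sequences, 16 rose and 188 fell. Over all sequences tested, 2.04% rose and 4.17% fell. The study's lists of SNPs with allelic effects hold 60 of the 336 as chromatin accessibility QTLs (caQTLs) of islets and 18 as T2D SNPs, and they were chosen by the study on these libraries, so they are not independent. Among the 120 caQTL sequences 2 rose and 54 fell, with a median log2 fold change of -0.24. Among the 36 T2D sequences of that kind 4 rose and 7 fell, with a median of 0.07.

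Several well-known T2D loci, picked for their genes after the values had been seen, show both patterns. At KCNQ1, a potassium channel gene, the reference allele of rs2237897 (chromosome 11, position 2858546) gave 0.63, 0.84, 0.64, 0.64 and 0.74 in DMSO and 0.38, 0.59, 0.24, 0.28 and 0.33 in Tg. All Tg values lie below all DMSO values (log2 fold change -0.31, edgeR adjusted p = 7.14e-05). At THADA, rs6731980 (chromosome 2, position 43703183) fell by 0.27 on the log2 scale for each allele. At FAM58A, rs3817718 (X chromosome, position 152860457) showed the largest of these falls, with 0.85, 1.22, 0.72, 0.79 and 1.08 in DMSO and 0.45, 0.27, 0.19, 0.20 and 0.35 in Tg for the reference allele (edgeR adjusted p = 1.07e-07). The alternate allele of that SNP fell by 0.62. In the other direction, rs7593136 at MRPL33 (chromosome 2, position 28017792), a mitochondrial ribosome gene, gave 0.27, 0.24, 0.40, 0.47 and 0.29 in DMSO and 0.63, 0.52, 0.54, 0.51 and 0.58 in Tg for the alternate allele. The groups do not overlap (log2 fold change 0.24, edgeR adjusted p = 0.000978), and the reference allele rose by 0.23. The call of the alternate allele was lost in the second sequencing run alone (edgeR adjusted p = 0.014) and with total-count scaling (0.077). At PPARG, the nuclear receptor that drives fat cell formation, the reference allele of rs2012444 (chromosome 3, position 12375956) gave 0.36, 0.36, 0.38, 0.21 and 0.20 in DMSO and 0.59, 0.70, 0.41, 0.69 and 0.26 in Tg. Its rise (log2 fold change 0.25, edgeR adjusted p = 0.00506) rests on overlapping groups and was lost without DMSO library 4 or 5 or Tg library 1, 2 or 4 (edgeR adjusted p of 0.0167 to 0.0386), and with total-count scaling (0.129). In the first sequencing run alone the rise was lost too (edgeR adjusted p = 0.0137). The alternate allele of rs2012444 did not pass the test between Tg and DMSO. At WFS1, which encodes an ER membrane protein lost in Wolfram syndrome, the reference allele of rs4458523 (chromosome 4, position 6289986) gave 0.23, 0.26, 0.14, 0.26 and 0.27 in DMSO and 0.21, 0.21, 0.11, 0.17 and 0.07 in Tg. These values overlap (log2 fold change -0.06, SE 0.0737, edgeR adjusted p = 0.756).

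Allelic effects were called for a smaller share of the weakly active SNPs than of all SNPs tested, in DMSO and in Tg, and the difference between these shares was not tested. The alternate minus reference difference of the log2 ratio was tested in each condition with limma, over SNPs with at least 1 active allele, at an FDR of 10%. In DMSO 101 of the 320 SNPs tested (31.6%) had an allelic effect, beside 43.0% of all 1569 SNPs tested, and the alternate allele was the higher one for 47 and the reference for 54. In Tg 56 of 292 (19.2%) had one, beside 35.8% of all 1059, with 28 in each direction. Keeping both alleles within 0.2 to 0.5 limited the allelic difference in standard culture to less than 0.3 by the rule. SNPs with larger differences there were left out, so smaller shares and sizes in DMSO and Tg are no independent result. The effects called had sizes of 0.09 to 0.97 in DMSO, with a median of 0.18, and of 0.11 to 0.57 in Tg, with a median of 0.20. Among the other SNPs called, these medians were 0.24 and 0.30. Of the effects called in DMSO, 76 of 101 had the same sign as the mean difference in standard culture, and of those called in Tg, 43 of 56. The 5 libraries of a condition share 1 mean of the plasmid counts, whose error the test does not see. When each RNA library was set over 1 plasmid library instead, 67 SNPs were called in DMSO and 35 in Tg. When all SNPs were tested, active or not, 38 and 5 were called.

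The strongest allelic effect on well-counted plasmids was that of rs868521. In DMSO the reference allele gave 1.20, 1.72, 1.20, 1.36 and 1.50 and the alternate allele 0.54, 0.98, 0.58, 0.62 and 0.86. The alternate allele was lower in all 5 libraries, by 0.66, 0.73, 0.62, 0.74 and 0.64 (limma adjusted p = 8.39e-06). In Tg the reference gave 1.36, 1.01, 0.92, 0.95 and 1.13 and the alternate 0.69, 0.42, 0.32, 0.47 and 0.64, a mean difference of -0.57 ± 0.08 (SD, n = 5, limma adjusted p = 0.000112). At rs1453863, upstream of PPM1B, a protein phosphatase gene, the alternate allele was higher by 0.46, 0.49, 0.54, 0.51 and 0.36 in DMSO and by 0.44, 0.52, 0.31, 0.54 and 0.22 in Tg (limma adjusted p = 6.64e-05 and 0.00204). At rs10504389, upstream of MTFR1, a mitochondrial gene, it was higher by 0.39, 0.71, 0.48, 0.65 and 0.62 in DMSO and by 0.40, 0.36, 0.39, 0.41 and 0.42 in Tg. These SNPs had one direction in all 10 libraries. For rs587619282 the alternate allele was higher by 0.36 ± 0.10 in DMSO and by 0.45 ± 0.13 in Tg (SD, n = 5), and for rs189817785 it was lower in DMSO, at -0.51 ± 0.10. The largest called difference in DMSO was that of rs250972, at -0.59, -0.91, -1.39, -1.06 and -0.87 (limma adjusted p = 0.000218), on only 861 plasmid counts for the reference and 1343 for the alternate allele. The SE of the plasmid ratio between alleles was 0.0727 at rs250972, against a median of 0.0356 over the 336 SNPs.

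The share of SNPs called for a change of the allelic effect from DMSO to Tg was close to that over all SNPs tested. The difference itself was tested with limma at an FDR of 10%, and 10 of 325 weakly active SNPs (3.08%) passed, beside 3.83% of all 1670 SNPs tested. At rs16904990 the difference between alleles was -0.42, -0.47, -0.37, -0.47 and -0.43 in DMSO and -0.22, -0.27, -0.12, 0.04 and -0.10 in Tg. The values do not overlap, and the difference between conditions was 0.30 (SE 0.065, limma adjusted p = 0.0509). At rs17314234 they were -0.30, -0.45, -0.29, -0.40 and -0.39 in DMSO and 0.02, -0.07, -0.17, -0.13 and -0.17 in Tg, again without overlap (limma adjusted p = 0.0552). At rs466240 the alternate allele was higher by 0.26, 0.15, 0.21, 0.22 and 0.21 in DMSO, while Tg gave -0.13, 0.01, 0.03, -0.06 and 0.05 (limma adjusted p = 0.0554). At rs250972 the Tg values were 0.15, 0.03, 0.21, -0.96 and 0.30, against the DMSO values given above (limma adjusted p = 0.0775). The study calls the replicates of DMSO and Tg paired. With the replicate number as a block 0 SNPs passed, with limma adjusted p of 0.128 at rs16904990, 0.132 at rs17314234, 0.17 at rs466240 and 0.126 at rs250972, and 35 had an unadjusted limma p under 0.05. None of the 10 passed when all SNPs were tested. Leaving out 1 library gave 0 SNPs without DMSO library 2 or 5, 2 without DMSO library 3 or 4, 3 without DMSO library 1, 5 without Tg library 3, 6 without Tg library 1 or 5, 7 without Tg library 4 and 8 without Tg library 2. At an unadjusted limma p under 0.05 there were 34 without DMSO library 2, 30 without DMSO library 5 and 32 with all SNPs tested, beside 39 with all libraries.

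The SNPs whose bases are printed above show this range of behaviour. At rs12189774, near VEGFA, a growth factor of blood vessels, the reference allele gave 0.58, 0.68, 0.38, 0.56 and 0.59 in DMSO and the alternate allele 0.42, 0.47, 0.27, 0.41 and 0.42. In Tg the reference gave 0.36, 0.41, 0.34, 0.33 and 0.25 and the alternate 0.21, 0.15, 0.19, 0.12 and 0.06. The reference allele was higher in all 10 libraries, by 0.16 ± 0.04 in DMSO (limma adjusted p = 0.00922) and by 0.19 ± 0.05 in Tg (limma adjusted p = 0.0119), and the effect in Tg was not called when all SNPs were tested (limma adjusted p = 0.192). The SE of its plasmid ratio between alleles was 0.0531. Its allelic effect did not differ between Tg and DMSO past the test, with a difference of -0.03 (SE 0.0488, limma adjusted p = 0.842). The study lists this SNP among those with an allelic effect in Tg and not at baseline, that is, in standard culture. Tg was set against DMSO here, so that statement of the study was not tested. The alternate allele fell in Tg (log2 fold change -0.23, edgeR adjusted p = 0.00117), a call lost in the second sequencing run alone (edgeR adjusted p = 0.0177), and the reference allele, at -0.20, missed the threshold (edgeR adjusted p = 0.0138) but passed without DMSO library 3 (0.00358).

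At rs12423334, near KDM2B, a histone demethylase gene, the reference allele gave 0.36, 0.23, 0.35, 0.19 and 0.30 in DMSO and 0.60, 0.57, 0.36, 0.51 and 0.49 in Tg. The lowest Tg value only reaches the highest DMSO value, and the rise (1.18-fold, edgeR adjusted p = 0.00485) was lost without DMSO library 2, 4 or 5 or Tg library 1 or 2 (edgeR adjusted p of 0.0129 to 0.0248) and with total-count scaling (0.137). The call was also lost in the second sequencing run alone (edgeR adjusted p = 0.0202). This rise was the only one among the 16 printed sequences, beside 3 falls. The other falls were those of rs1270853, whose alternate allele gave 0.97, 1.46, 1.15, 1.08 and 1.12 in DMSO and 0.56, 0.56, 0.70, 0.45 and 0.45 in Tg (1.52-fold lower, edgeR adjusted p = 1.52e-08). Its reference allele fell by 0.50 on the log2 scale. Its alleles stand 1 base apart and differed by 0.05 ± 0.09 in DMSO and by -0.05 ± 0.12 in Tg (SD, n = 5), with limma adjusted p of 0.349 and 0.58. Allelic effects were called at 4 of the 8 printed SNPs in DMSO, with the reference higher at 3. In Tg they were called at 5, with the reference higher at each. The shares in DMSO and Tg were 43.0% and 35.8% over all SNPs tested, and 31.6% and 19.2% over the weakly active ones. The study searched for motif matches at SNPs that it had called for allelic effects on these same libraries. The counts over the 8 printed SNPs are therefore no independent result. At rs111817684, near PCNX2, the alternate allele was higher by 0.24 ± 0.09 in DMSO (limma adjusted p = 0.00454). At rs10790008 the reference was higher by 0.14 ± 0.10 in DMSO and 0.22 ± 0.22 in Tg, and at rs9429530 by 0.13 ± 0.05 and 0.18 ± 0.14. At rs12496506, beside SLC2A2, which encodes the glucose transporter of β cells, it was higher by 0.15 ± 0.07 in Tg (limma adjusted p = 0.0426). At rs1332018, on 1697 and 1743 plasmid counts, the DMSO ratios were 0.38 ± 0.11 and 0.14 ± 0.27, a difference that did not pass the test (limma adjusted p = 0.146).

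The study discusses rs947734 at the SLC35D3 locus, where the SNP lies in a short interspersed nuclear element. The study reports that the activity and allelic effect of this SNP rose under ER stress. At rs947734, by the locus named RPL35AP3 and Y_RNA, the alternate allele gave 0.40, 0.44, 0.41, 0.39 and 0.32 in DMSO and 0.65, 0.80, 0.62, 0.85 and 0.44 in Tg. Only the lowest Tg value meets the highest DMSO value (1.23-fold, edgeR adjusted p = 0.00101), and the call was lost without Tg library 4 (edgeR adjusted p = 0.0104) and with total-count scaling (0.0389). The reference allele did not pass the test between Tg and DMSO. The alternate allele was higher than the reference by 0.12 ± 0.05 in DMSO and by 0.22 ± 0.21 in Tg (SD, n = 5, limma adjusted p = 0.0327 and 0.0792). The allelic effect of rs947734 was not among those that differed between Tg and DMSO past the test.

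Some of the tested 200 bp sequences overlap in part, because their SNPs lie close together. At RGS7, a regulator of G protein signalling, rs553788, rs665103 and rs1713546 lie 64 to 139 bp apart on chromosome 1, from position 241187207 to 241187346. Their mean ratios were 0.19 to 0.36 in DMSO and 0.28 to 0.51 in Tg over the 6 sequences, all within or near the band of standard culture. No allele of them passed the test between Tg and DMSO. At TMEM18, rs10173167 and rs7571967 lie 72 bp apart, with mean ratios of 0.09 to 0.22 in DMSO and 0.16 to 0.28 in Tg, and none of these sequences changed past the test either. For 10 of the 336 SNPs a further pair of sequences carries the other allele of a neighbouring SNP. In 9 of them that exchange moved the ratio by -0.25 to 0.30 in DMSO and by -0.30 to 0.13 in Tg over 18 sequences. The SNP with the largest fall among these 9, rs1589960, lies between PDZRN3-AS1 and CNTN3, and its reference sequence gave 0.94, 1.30, 0.93, 0.99 and 1.10 in DMSO and 0.49, 0.31, 0.28, 0.15 and 0.45 in Tg. With the other neighbouring allele it went from 1.15 ± 0.18 to 0.35 ± 0.14 (SD, n = 5). The tenth, rs2425847 in an intron of the cadherin gene CDH22, stands apart: its reference sequence with the other neighbouring allele reached 2.14 ± 0.21 in DMSO and 1.98 ± 0.15 in Tg, against 0.36 ± 0.39 and 0.09 ± 0.46 for the sequence that the rule chose. These sequences had only 702 and 854 plasmid counts, the alternate sequence with the other neighbouring allele, at 0.45 ± 0.36 in DMSO, had 153, and the part of the low counts in this difference was not tested.

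Positions in hg19 were held for 169 of the 336 SNPs and a gene annotation for 54, of which 27 were intergenic, 13 intronic, 5 upstream of a gene, 4 in a 5′ UTR, 4 in an intron of a non-coding RNA and 1 in a 3′ UTR. Beside the 30.1% that fell and the 3.72% that rose among all 672 sequences, 5 of the 10 sequences upstream of a gene fell in Tg and 0 rose, and these 10 are the alleles of only 5 SNPs. Of the 54 intergenic sequences 14 fell and 2 rose, and of the 26 intronic ones 6 fell and 1 rose. Among all sequences tested in the assay, 4.17% fell and 2.04% rose. The median ratio in DMSO was 0.68 upstream, 0.39 between genes and 0.35 in introns, and in Tg it was 0.31, 0.35 and 0.28. These groups are small and were not tested against each other.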

How the data were processed

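The values are barcode counts per tested sequence, which the authors deposited as whole numbers, not normalized, for RNA of 3 conditions and for plasmid DNA. DESeq2 stands without a version in the submitters' notes on processing, and for the counting of barcodes the program was not given in the sources used here. Standard culture libraries went through fewer PCR cycles than those of DMSO and Tg, and no library has molecular identifiers. Counts of the 2 sequencing runs of DMSO, Tg and their plasmid were summed by library. The first allele of a SNP was the reference for 1117 of 1117 SNPs that could be checked, within a relative tolerance of 0.001.

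Activity and Tg against DMSO were tested with edgeR 4.0.16 in R 4.3.3 (quasi-likelihood, TMM scaling, mean of at least 10 plasmid counts, FDR 1%), and allelic effects with limma 3.58.1 (FDR 10%), with Benjamini-Hochberg adjustment over all sequences or SNPs tested. Members were not filtered out: all 672 sequences were tested for activity. DESeq2 1.42.0, other scalings, minimums and pseudocounts, single sequencing runs, a replicate block, other sets of SNPs and leaving out each library were alternatives. The scripts were tested on simulated data. SNPs are named that were most active, changed most or had the largest allelic effects, that the study discusses, that have printed bases, or that lie at a bound, overlap or carry a second pair. The single-SNP values of 1 member are not reported here, while counts include it. Members and lists were chosen with earlier results of these data known. The p-values for Tg against DMSO and for allelic effects measure the spread between transfections of 1 line. Those for activity also take in the spread between libraries of the same plasmid batch. Positions are hg19, and mouse reference files were not used.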

Additional observations from a re-analysis of the deposited data

Results flagged for a closer look

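Among 64 groups of 5 libraries examined, 3 held a library far from the others, and chance gives such a library in about 1 in 20 groups. These were DMSO library 3 of the rs4458523 reference sequence, at a ratio of 0.1441, and, for the allelic difference in Tg, library 4 of rs250972, at -0.9575, and library 5 of rs587619282, at 0.6788.

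By the test of the difference itself, 10 of 325 SNPs (3.08%) had an allelic effect that differed between Tg and DMSO, beside 3.83% of all SNPs tested. With the replicate number as a block 0 of the weakly active SNPs passed, and 0 passed with all SNPs tested. Of the 10 SNPs, 9 are given here. Tg minus DMSO was 0.2952 at rs16904990, 0.2613 at rs17314234, -0.2300 at rs466240 and 0.9129 at rs250972. It was -0.3528 at rs39804, 0.2537 at rs11652716, 0.4817 at rs114554819, -0.1917 at rs9523150 and -0.2354 at rs9321643. The difference at rs250972 includes the distant Tg library.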

How the results depend on the processing

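Of 135 alternative values of the counts and medians, 111 stayed close to the main run. For counts this means within 1.5 times, and for medians a shift smaller than the SD of the medians of single libraries. The median ratio stayed at 0.47 to 0.50 in DMSO and at 0.35 to 0.38 in Tg. With total-count scaling, the active sequences numbered 88 in DMSO, 16 in Tg and 0 in standard culture, and the rises 6. DESeq2 gave 39 rises, and leaving out single libraries 15 to 26 rises and 160 to 208 falls. With all SNPs tested, allelic effects numbered 38 in DMSO, 5 in Tg and 0 for the difference between conditions. Each RNA library over 1 plasmid library, chosen after seeing the data, gave 67 in DMSO and 35 in Tg, and the methods' t-test 35 in Tg. For the difference between conditions the second sequencing run alone gave 3, and leaving out single libraries 0 to 8. The cause of these changes was not tested.

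The study calls the replicates of DMSO and Tg paired, and the libraries share replicate numbers. The deviations of same-numbered libraries had correlations of -0.0401 to 0.0042, beside -0.0566 to 0.0467 between libraries of different numbers. With a replicate block 27 sequences rose, 204 fell and 0 SNPs had an allelic effect that differed (35 at an unadjusted limma p under 0.05).

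Of 60 named results, 41 kept their direction and side under every alternative run. Of 864 alternative values 69 lost and 7 gained a call, and 1 turned its direction: the allelic effect of rs466240 in Tg, which ran from -0.036 to 0.0068 when single Tg libraries were left out and was highest without Tg library 1 (limma adjusted p = 0.934). Of the 299 SNPs that the rule chose over all library numbers, 279 were among the 336. Low plasmid counts, down to 627 for a sequence, limit single allelic differences.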
